A study of Humulus lupulus with 6 samples.

Results

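Leaf and apical meristem of hop (Humulus lupulus), cultivar Cascade, were compared at gene loci that have introns and whose assembled gene models were of nearly equal length in both tissues. A gene model is the set of exons assembled from the reads of 1 tissue, and a locus is a place in the genome where models of the tissues overlap by 1 exonic base or more, strand by strand. A locus was kept where leaf and meristem each had exactly 1 model and both had at least 2 exons after overlapping exons were merged. The shorter model also had to be at least 90% as long as the longer one, in total exonic bases. Of 62745 loci joined over the 2 tissues, 37961 had a model in both, 30307 had exactly 1 in each, 18261 of these were multi-exon in both, and 10486 passed the length limit. Joined over all 3 tissues of the study, the models formed 67811 loci. The plants were untreated apart from insect and fungus control in a glasshouse, and young leaves, apical meristems and growing stems were sampled. The labels list 2 samples for each tissue, and each tissue has 1 count column, so every value below is a single measurement of its tissue with no replicate error.

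The apical meristem is the dividing shoot tip that gives rise to leaves and stem, and its cells are small and largely without mature chloroplasts. A young leaf is an expanding photosynthetic organ, and in such tissue a small set of nuclear genes for the photosynthetic machinery typically accounts for much of the messenger RNA. Most plant genes are interrupted by introns, which are removed from the transcript by splicing, and plant introns are mostly short. Gene numbers in the tables are not paired with gene names, so loci are given by contig and position on the submitters' Cascade assembly. The tissue labels could not be checked against marker genes for the same reason.

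The counted fragments totalled 162799212 in leaf and 135877224 in meristem. The kept loci took 62.2% of them in leaf and 56.5% in meristem, with a median of 2569 fragments per locus in leaf and 2734 in meristem. At such counts the counting error was small: among the loci called below, the lower tissue had a median of 1813 fragments and never fewer than 28. Levels are in normalised CPM, which is fragments scaled to a common total of counted fragments after scaling by TMM (trimmed mean of M-values) factors. Where different loci are set side by side, levels are in normalised CPM per kilobase of model (CPM per kb).

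A kept locus was compared where the higher tissue reached 10 normalised CPM, which left 7470 loci, and counted as a call from a fold of 4 upwards. At least 4-fold higher in leaf were 570 loci (7.63% of those compared), and at least 4-fold higher in meristem were 189 (2.53%), together 10.2%. Leaf therefore held 75.1% of the calls. At 243 of the leaf calls and 101 of the meristem calls, the lower tissue was under 10 CPM. Those loci were compared only through the tissue where they were higher. In bulk tissue, fewer cells that express a gene and less of its RNA per cell cannot be told apart. Among all 15845 loci that had a model in both tissues and reached the same level, whatever their exons or lengths, the same rule and factors called 8.91% for leaf and 7.89% for meristem, together 16.8%. Under these factors, the calls of the length-matched loci were thus a smaller share and lay more to the leaf side than those of all loci. The factors were estimated on the length-matched loci, whose median log2(leaf/meristem) was 0.01, against -0.15 for all loci. The split of the calls depends on that choice. No test of the difference in calls was possible with 1 column per tissue.

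The split between the tissues rested on the scaling. The factors were 0.863 for leaf and 1.16 for meristem, which shifts log2(leaf/meristem) up by 0.43. Without them 362 loci were called for leaf and 385 for meristem, and log2(leaf/meristem) had a median of -0.46 in place of 0.01. With factors estimated on all loci that have a model in both tissues, 744 were called for leaf and 120 for meristem. Because the factors moved every locus by the same 0.43, the calls with and without them were nested by construction. All 362 leaf loci called without factors were among the 570, and all 189 meristem loci were among the 385. Calls are therefore relative to the bulk of the kept loci.

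Most compared loci differed little. Within 2-fold of each other were 4938 loci (66.1%), another 977 were between 2- and 4-fold higher in leaf, and 796 between 2- and 4-fold higher in meristem. The upper tail was longer on the leaf side, since the 5th and 95th percentiles of log2(leaf/meristem) were -1.56 and 2.40. Leaf was at least 16-fold higher at 45 loci and meristem at 10, but those above 100-fold were 1 in leaf and 3 in meristem. The median fold was 6.32 among the leaf calls and 5.49 among the meristem calls.

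**Figure D1:**
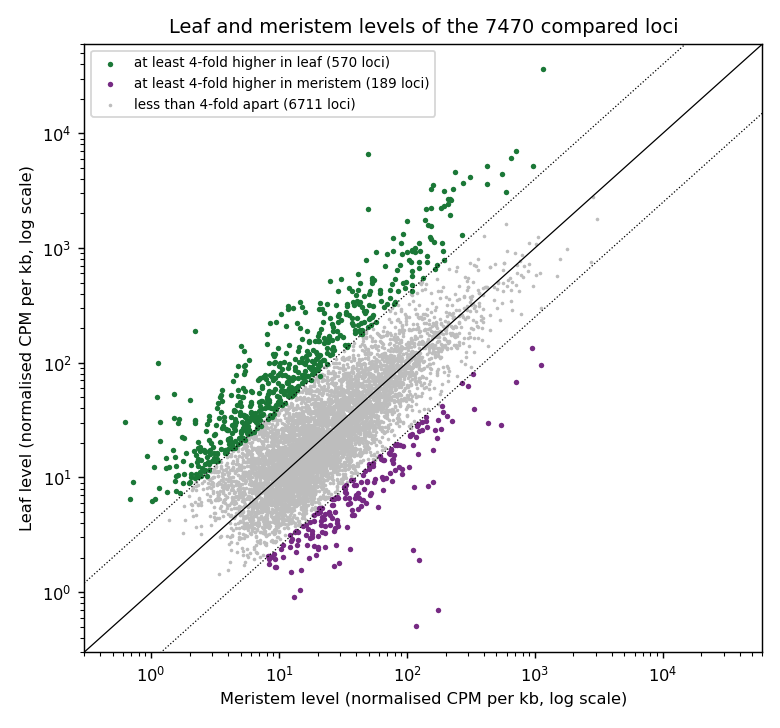
Level of each of the 7470 compared loci in leaf (vertical axis) and meristem (horizontal axis), in normalised CPM per kb on log axes; 1 point is 1 locus, the solid line marks equal levels and the dotted lines a 4-fold difference. The 570 loci higher in leaf extend to far higher levels than the 189 higher in meristem.

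The loci higher in leaf carried a large part of the leaf transcriptome. Their share of all counted fragments was 22.5% in leaf and 3.14% in meristem. For the loci higher in meristem it was 0.285% in leaf and 2.56% in meristem. In each class the levels had been used to choose the loci, so these are descriptions. Per kilobase, the leaf calls had a median of 72.7 CPM per kb in leaf and 10.4 in meristem, while the meristem calls had 6.59 in leaf and 38.5 in meristem. The loci not called had the same median in both, 19.6 CPM per kb.

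The most abundant leaf calls were of very different fold. A 3-exon locus on contig 000046F (bases 635916 to 637000, plus strand) had 3552212 fragments in leaf and 125846 in meristem, or 36445 and 1153 CPM per kb, a 31.7-fold difference. A 4-exon locus on 001329F (bases 492118 to 494511, minus strand) had 1550747 fragments in leaf and 163056 in meristem, 10.7-fold. The third by level was a 10-exon locus on 000004F (bases 3948739 to 3952268, plus strand), numbered STRG.393 in leaf and STRG.403 in meristem. It had 1111798 fragments in leaf and 9903 in meristem, or 6658 and 49.7 CPM per kb. Its fold of 126 (95% counting interval 123 to 128) was also the largest of all leaf calls.

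The next leaf calls by level stood closer to meristem. A 4-exon locus on 002397F (bases 15204 to 17615, minus strand) had 1292745 fragments in leaf and 148676 in meristem, 9.75-fold. A 2-exon locus on 002923F (bases 200188 to 201405, plus strand) had 830359 in leaf and 173620 in meristem, 5.36-fold. These loci thus remained abundant in meristem, at 648 and 972 CPM per kb, far above the median of the loci not called.

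The second largest fold in favour of leaf was at a weaker locus. A 2-exon locus on 000265F (bases 212210 to 213077, minus strand; STRG.6849 in leaf, STRG.7860 in meristem) had 10997 fragments in leaf and 129 in meristem, or 100 and 1.13 CPM per kb. Its fold was 95.6 (80.4 to 115), and its intron was of 85 bases. At the most exon-rich leaf call, on 005453F (bases 235472 to 255303, minus strand), both tissues had the same 33 exons, and 245198 fragments in leaf stood against 58787 in meristem, 4.68-fold. The leaf call with the longest span was a 2-exon locus on 000592F (bases 464744 to 577793, minus strand), where leaf had 238934 fragments and meristem 6283, 42.6-fold, whose only intron measured 112247 bases in the models of both tissues.

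The largest folds of all compared loci were meristem calls. A 3-exon locus on 002603F (bases 53264 to 54835, plus strand; STRG.30224 in leaf, STRG.35389 in meristem) had 87 fragments in leaf and 24707 in meristem, or 0.502 and 117 CPM per kb. It was 253-fold higher in meristem (205 to 316). A 7-exon locus on 001448F (bases 121377 to 124132, plus strand; STRG.21658 in leaf, STRG.25321 in meristem) counted 193 in leaf and 52719 in meristem, a fold of 244 (211 to 282) in favour of meristem. Both had identical introns in the models of leaf and meristem, with few fragments behind the leaf models. Lengths within 10% were required of every kept locus.

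The most abundant meristem calls were less tissue-restricted between leaf and meristem. A 7-exon locus on 003092F (bases 84743 to 87149, plus strand) had 19706 fragments in leaf and 270418 in meristem, or 95.6 and 1117 CPM per kb, 12.2-fold higher in meristem. A 3-exon locus on 001394F (bases 58728 to 60469, minus strand) had 27718 in leaf and 208630 in meristem, 6.71-fold. A 7-exon locus on 010993F (bases 1711 to 4867, plus strand) had 9730 in leaf and 209820 in meristem, 19.2-fold. Each of the 3 was thus well above the detection floor in leaf, where a count of 0 would have allowed up to 3 counts.

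Another pair of abundant meristem calls looked alike in structure. A locus on 005468F (bases 450 to 1046, plus strand) had 3795 fragments in leaf and 46273 in meristem, 10.9-fold higher in meristem. One on 000559F (bases 65058 to 65654, minus strand) had 1708 in leaf and 28020 in meristem, 14.6-fold. Each spanned 597 bases, had 2 exons and an intron of 185 bases, and had a meristem model of 412 bases. Their sequences were not compared here, so whether they are copies of 1 gene was not tested. Their values are uncertain to that extent, because reads with several alignments are not counted by default in featureCounts.

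The meristem call with the most exons lay on 000049F (bases 1015046 to 1024323, plus strand). It had 28 exons in both tissues, 5869 fragments in leaf and 45799 in meristem, 6.96-fold higher in meristem. The one with the longest span, on 006723F (bases 137602 to 168785, minus strand), had 14 exons, 3446 fragments in leaf and 43802 in meristem, 11.3-fold higher in meristem. Its longest intron measured 25099 bases.

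**Figure D2:**
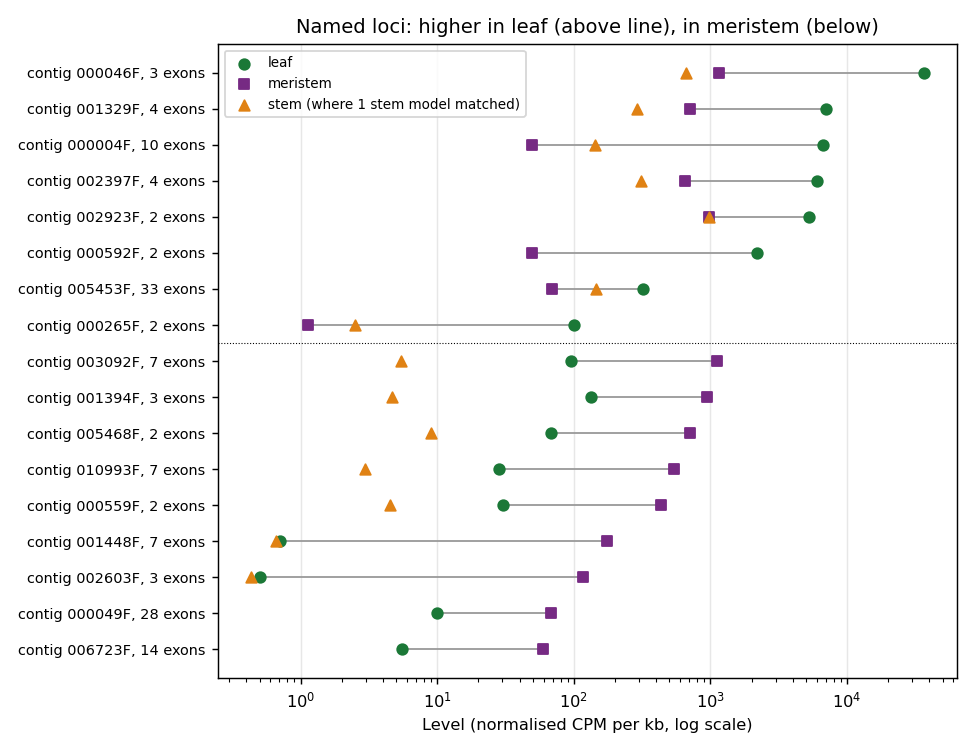
Levels of the loci with the largest folds, the highest levels, the most exons and the longest spans, in normalised CPM per kb on a log axis, in leaf (circles), meristem (squares) and, where a single stem model matched, stem (triangles); each point is 1 count column. In the lower block, the meristem calls, every stem value lies at or below 9.03 CPM per kb, and all of these are below the leaf value.

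High level alone did not mark a locus as tissue-biased. Among the loci within 1.5-fold, the highest level was at a 4-exon locus on 000113F (bases 1715676 to 1718317, plus strand), where leaf had 757138 fragments and meristem 879489, or 2772 and 2830 CPM per kb. Next came loci on 000478F (bases 746941 to 748925, plus strand), with 1258 CPM per kb in leaf and 1053 in meristem, and on 000585F (bases 757085 to 759559, plus strand), with 1105 in leaf and 903 in meristem.

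Around the limits of the rule, values were close. The call for leaf nearest to 4-fold was 4.01-fold, with 7827 fragments in leaf and 2191 in meristem, and the nearest locus outside was 3.999-fold, with 10618 and 2978. For meristem they were 4.01-fold (673 in leaf, 3028 in meristem) and 3.99-fold (1315 in leaf, 5888 in meristem). The last locus inside the length limit had 459 bases in leaf and 510 in meristem, and the first outside had 1196 and 1329. At the level limit, the last locus compared reached 10.004 CPM and the first left out 9.9997 CPM.

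The share of leaf calls rose steeply with level, and the share of meristem calls stayed under 5% in each bin. By the level of the higher tissue, leaf calls made up 2.78% of the 2880 loci under 20 CPM per kb, 10.9% of the 1099 at 50 to 100, 27.4% of the 296 at 200 to 500 and 72.7% of the 55 at 1000 or more. The meristem calls made up 1.46%, 3.37%, 2.36% and 1.82% in the same bins, and were highest at 100 to 200, with 4.96% of 585 loci, where leaf calls were 12.6%. Counts in the top bin were 40 for leaf and 1 for meristem, that 1 being the locus on 003092F. Binned by the geometric mean of both tissues, which does not favour the tissue that is higher, leaf calls went from 6.06% under 20 CPM per kb to 61.1% of 18 loci at 1000 or more, and meristem calls from 3.04% to 0 of those 18. Without scaling factors the same trend was seen for leaf, with 2.44% of the loci under 50 CPM per kb and 43.6% of the 133 at 500 or more. The meristem shares were then 4.69% and 5.26%.

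Gene structure went with the direction of the difference too. Leaf calls made up 12.6% of the 1097 loci with 2 exons, 9.06% of the 1546 with 4 or 5, 5.57% of the 2173 with 6 to 9 and 1.84% of the 163 with 20 or more. Meristem calls made up 3.28%, 1.68%, 2.39% and 5.52% of them. At 20 or more exons the counts were 3 for leaf and 9 for meristem, so this end of the range rests on few loci. The median of log2(leaf/meristem) fell along the same bins, being 0.25 at 2 exons, 0.10 at 4 or 5, -0.04 at 6 to 9 and -0.50 at 20 or more, so the shift was not limited to the called loci. The median exon number was 4 among the leaf calls and 6 among both the meristem calls and the loci not called.

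Without scaling factors, leaf calls still made up a larger share of the loci with 2 exons (8.42%) than of those with 10 or more (2.23%). The meristem shares, 6.0% and 5.48%, then differed little. Under the 15 alternatives tried, the leaf share at 2 exons was between 4.56% and 29.1%, the share at 10 or more exons between 0.963% and 13.5%, and in each alternative the first was the larger.

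The shares by exon number were also taken within bands of level. Under 50 CPM per kb, leaf calls were 6.12% of the loci with 2 or 3 exons, 3.73% of those with 4 to 9 and 2.71% of those with 10 or more. Between 50 and 200 CPM per kb they were 15.2%, 11% and 7.80%. At 200 or more they were 41.4%, 30.6% and 37.5%, the last from 48 loci, so this order by exon number did not hold at the highest levels. Meristem calls were 2.43%, 2.07% and 1.75% under 50 CPM per kb, and 3.89%, 2.27% and 7.80% between 50 and 200. At 200 or more they were 4.32%, 1.75% and 0%. The meristem order by exon number thus differed between the bands.

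The shares of calls were higher where introns were short, and the leaf share fell with model length from 500 bases upwards. Leaf calls made up 12.8% of the 1349 loci with models of 500 to under 1000 bases and 2.50% of the 601 with 3000 or more, while meristem calls made up 3.41% and 2.83%. The 156 loci with still shorter models stood apart from this, with 9 calls for leaf and 9 for meristem (5.77% each), the highest meristem share of the length bins. By the longest intron of the locus, leaf calls were 13.9% of the 633 loci with no intron of 200 bases or more and 6.5% of the 2893 whose longest was 500 to under 1000 bases. The meristem calls were 6.32% and 2.04% of the same loci. Both directions thus gained where all introns were short. Beyond 500 bases the leaf share stayed near its value, at 5.98% for 1000 to under 2000 bases, 6.08% for 2000 to under 5000 and 5.78% for 5000 or more.

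The relation to intron length was also seen within classes of exon number, with level not held equal. Of loci with 2 exons, 13.9% of those with an intron under 500 bases and 11.5% of the others were leaf calls, and 5.45% and 1.5% meristem calls. Among loci with 6 to 9 exons, leaf calls were 9.71% where the longest intron was under 500 bases and 4.18% where it was longer, and meristem calls were 3.66% and 1.97%. At 10 or more exons the meristem shares were 7.07% of 297 loci and 2.12% of 1365.

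**Figure D3:**
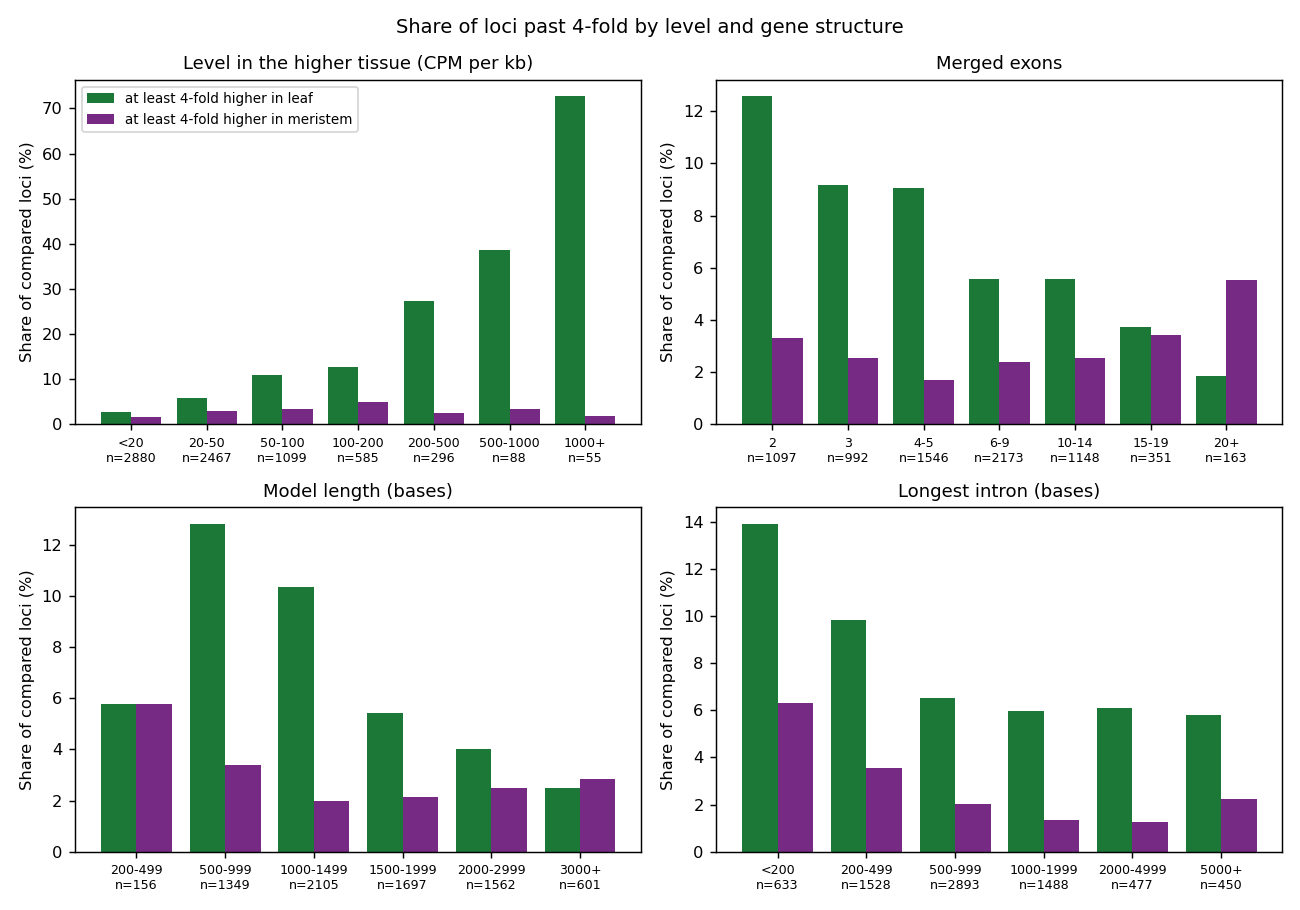
Share of the compared loci (%) that were at least 4-fold higher in leaf (left bars) or in meristem (right bars), by level of the higher tissue in normalised CPM per kb, number of merged exons, model length and longest intron; n under each bin is the number of loci compared. The leaf share climbs to 72.7% in the top level bin and falls along the exon bins, while the meristem share exceeds it at 20 or more exons and at 3000 or more bases.

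Loci outside the length limit were called more evenly for both tissues under the same factors, with counts not divided by model length. Multi-exon loci with 1 model per tissue whose lengths were over 10% apart numbered 7775, of which 3240 reached the level minimum. Of these, 9.14% were leaf calls and 8.09% meristem calls, together 17.2%, so leaf held 53.0% of their calls. Where the leaf model was under 50% as long as that of meristem, 2 loci were called for leaf and 52 for meristem, of 137. Where the meristem model was under 50% as long as that of leaf, 13 were called for leaf and 1 for meristem, of 37. Among the loci with a milder shortening of the leaf model, where it was 50 to 80% as long, 48 loci were called for leaf and 116 for meristem, of 1064, and where it was 80 to 90% as long, 100 were called for leaf and 78 for meristem, of 1343. With no limit on lengths and factors estimated anew on all 18261 multi-exon loci (0.824 for leaf, 1.21 for meristem), leaf held 72.9% of the calls. That share and the 75.1% with the limit differ in both the loci and the factors. Dividing counts by model length, with no limit on lengths, gave a leaf share of 78.5%, an alternative chosen after seeing the data.

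Even within the 10% limit, model length went with direction. The leaf model was the longer one at 55.1% of the leaf calls, 21.2% of the meristem calls and 34.9% of the loci not called. The difference was small in bases, as the median locus in each class had a shorter model of at least 97.1% of the longer. Dividing counts by model length left 576 loci called for leaf and 180 for meristem. Single-exon loci with the same length limit, 1023 of which were compared, were called more often than the multi-exon ones, at 15.9% for leaf and 4.5% for meristem, together 20.4%.

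Splicing patterns read from the models were much alike in the classes. All introns had the same coordinates in both tissues at 80.5% of the leaf calls, 79.9% of the meristem calls and 78.1% of the loci not called. The 5′ ends of the models lay a median of 12.5, 9 and 11 bases apart in the same order, and the 3′ ends 16, 15 and 15 bases.

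Where the introns differed, the difference had a direction. At 474 of the 7470 compared loci (6.35%), an intron of the leaf model lay wholly inside an exon of the meristem model, that is, it was read through in the meristem assembly. The reverse, a meristem intron inside a leaf exon, was found at 113 loci (1.51%). Among the 3307 loci within 1.5-fold, the counts were 201 and 49, and by class they were 29 and 6 at the leaf calls, 5 and 5 at the meristem calls and 440 and 102 at the loci not called. Stem models, which the rule did not use, resembled meristem in this: at the 6603 compared loci that also had a single multi-exon stem model, leaf introns lay inside stem exons at 421 and stem introns inside leaf exons at 123. Between stem and meristem the counts were 302 and 314.

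This difference was concentrated at weak loci. Leaf introns inside meristem exons were found at 10.1% of the loci under 20 CPM per kb, 5.43% at 20 to 50, 2.73% at 50 to 200 and 0.456% at 200 or more. Meristem introns inside leaf exons were found at 2.40%, 1.01%, 0.831% and 1.14% of them. The leaf table also has the most counted fragments, and the part of depth in this was not tested. Total lengths had to agree within 10%, so loci where a retained intron lengthened the model beyond that were left out.

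Models on the opposite strand were common beside leaf calls and rare beside meristem calls. An exon of a model on the other strand overlapped 89 of the leaf calls (15.6%), 4 of the meristem calls (2.12%) and 467 of the loci not called (6.96%). Leaf calls had the largest share within each band of level too: under 50 CPM per kb the shares were 20.8%, 3.57% and 7.32%, and between 50 and 200 they were 13.4%, 0 of 66 loci and 6.39%. At 200 or more they were 17 of 155 leaf calls, 0 of 11 meristem calls and 9 of 273 loci not called. Of the 89 leaf calls, 19 had such a model in the leaf table alone, 26 in the meristem table alone and 44 in both, and at 57 every such model had a single exon. The other-strand model carried a median of 1.03% as many fragments as the leaf call itself in leaf and 4.57% in meristem. The sources used here do not say whether the library kit marked the strand, so it is not known how fully the counts separate the 2 strands. In an alternative, all overlapped loci were left out and the factors estimated anew on the rest (0.856 for leaf, 1.17 for meristem). Of the 6914 loci then compared, 499 were called for leaf and 181 for meristem. These counts thus reflect both the removal and the new factors.

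Stem offered a level that had no part in the calls. A single stem model joined to the locus at 517 of the 570 leaf calls, 143 of the 189 meristem calls and 5996 of the 6711 loci not called. At the leaf calls the median levels were 77.9 CPM per kb in leaf, 10.9 in meristem and 13.6 in stem. At the meristem calls they were 6.78 in leaf, 39.8 in meristem and 5.79 in stem. At the loci not called they were 20.8, 20.6 and 21.0. In each called class, the stem median thus lay near that of the lower tissue.

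The stem values were more scattered than their medians show. At the leaf calls the stem level was within 2-fold of the leaf level or above it at 81 loci (15.7%), between meristem and leaf at 260, and below both at 230. At the meristem calls it was within 2-fold of the meristem level or above it at 38 (26.6%), between leaf and meristem at 54 and below both at 76. More than 4-fold below the lower tissue lay 37 leaf calls (7.16%), 42 meristem calls (29.4%) and 321 of the loci not called (5.35%). Restricted to loci whose leaf, meristem and stem models all agreed in length within 10%, these shares were 6.05%, 24.2% and 4.06%.

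The most abundant meristem calls were among those low in stem. Stem levels were 5.44 CPM per kb at the locus on 003092F, 4.67 at that on 001394F, 2.97 at that on 010993F, and 9.03 and 4.54 at the structurally alike pair on 005468F and 000559F. Leaf levels at these 5 loci were between 28.3 and 134 CPM per kb. The loci with the largest folds in favour of meristem were low in both other tissues, with stem at 0.659 on 001448F and 0.437 on 002603F. Among the abundant leaf calls, stem was at 666 CPM per kb on 000046F, 289 on 001329F, 309 on 002397F and 971 on 002923F, each near or below the meristem level, and at 143 on 000004F, above it.

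**Figure D4:**
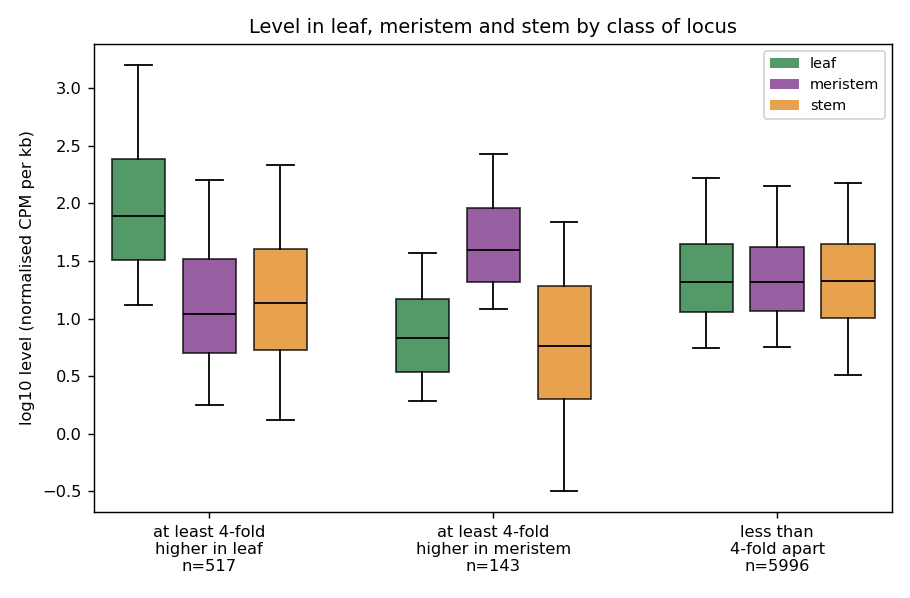
Levels in leaf, meristem and stem (log10 of normalised CPM per kb) at the loci of each class that had a single stem model; boxes span the quartiles with the median as a line, and whiskers the 5th to 95th percentile of loci. Stem sits near the lower tissue in both called classes, with medians of 13.6 CPM per kb at the leaf calls and 5.79 at the meristem calls, and level with both where no call was made.

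The calls were scattered over the assembly. Compared loci lay on 3206 contigs, of which 490 held a leaf call, 177 a meristem call and 48 both. Only 63 contigs held more than 1 leaf call and 11 more than 1 meristem call. The median start position was 289382 for leaf calls, 273668 for meristem calls and 283832 for the loci not called, counted from the start of the contig, and strands were balanced, with 48.9%, 48.1% and 49.8% on the plus strand.

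The contig with the most leaf calls was 000000F, with 5 of 21 compared loci. They lay at 483423 to 484647 (8.50-fold), 6039776 to 6046787 (8.99-fold), 6848526 to 6849556 (6.67-fold), 6849705 to 6851793 (4.94-fold) and 7921860 to 7923434 (9.60-fold). Of these, the third and the fourth stood on the same strand 148 bases apart, and the other calls lay 801738 bases or more from the next. For meristem the contig was 000023F, with 3 of 21. Its calls at 564992 to 566636 (6.83-fold) and 566783 to 570706 (7.37-fold) were 146 bases apart on the same strand, and the last lay at 684663 to 688388 (4.37-fold). Fold differences were alike within each close pair.

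Close neighbours on the same strand differed alike between the tissues, and tail-to-tail neighbours did not. Among compared loci that followed each other on a contig, 64 same-strand pairs were less than 200 bases apart. Their log2(leaf/meristem) differed by a median of 0.30, 95.3% were within 2-fold of each other, and Pearson's r over the 64 pairs was 0.91. For 132 same-strand pairs 200 to under 1000 bases apart, the median difference was 0.51 and r was 0.36. Tail-to-tail pairs, whose 3′ ends face each other, differed by a median of 1.03 at less than 200 bases (55 pairs, r = 0.07), close to the 1.07 of the 3477 pairs 5000 bases or more apart. Head-to-head pairs that close numbered 7, with a median difference of 0.88. The pairs share contig and library, and whether a close same-strand pair is 1 transcript assembled as 2 models was not tested. Each model counts as a locus here.

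**Figure D5:**
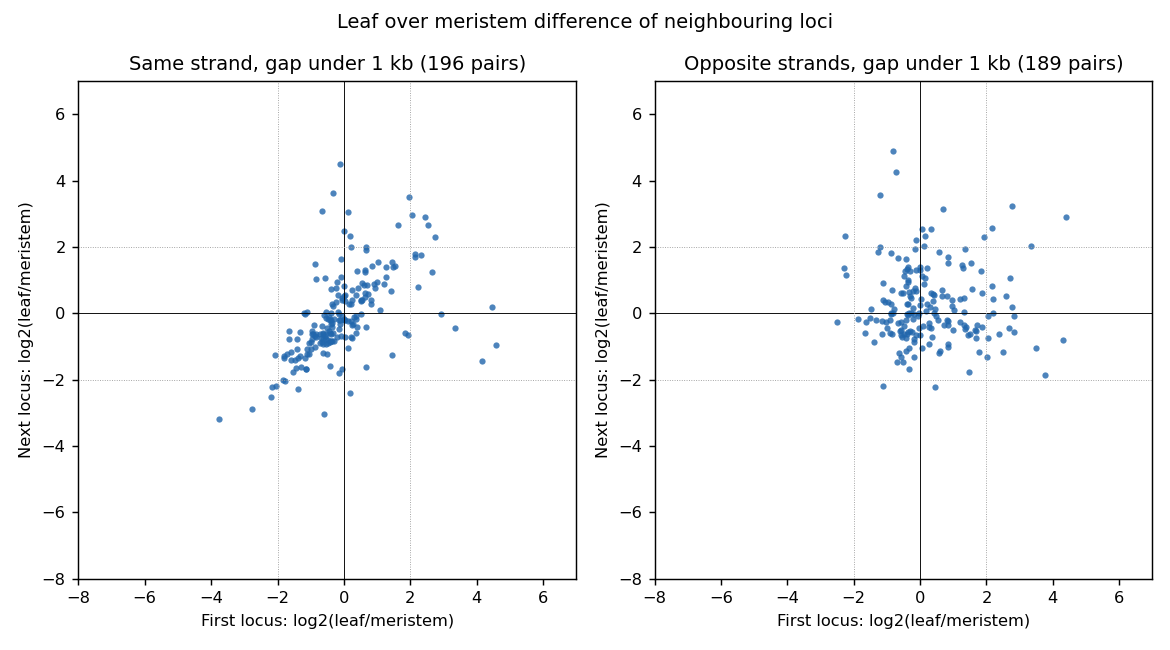
Log2(leaf/meristem) of a compared locus (horizontal axis) against that of the next compared locus on the contig (vertical axis), for pairs less than 1000 bases apart on the same strand (left) or on opposite strands (right); dotted lines mark the 4-fold limits and 1 point is 1 pair. Same-strand pairs gather along the diagonal, where both loci differ alike, and opposite-strand pairs scatter around 0.

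Calls of the same direction also stood next to each other. Of 110 pairs less than 5000 bases apart with at least 1 leaf call, both were leaf calls at 15 (13.6%), against 16 of 514 (3.11%) at 5000 bases or more. For meristem, the counts were 6 of 34 (17.6%) and 1 of 168 (0.595%). Same-strand pairs under 200 bases apart made up 2 of the 15 and 3 of the 6. Opposite calls stood next to each other at 1 of the 385 pairs less than 1000 bases apart, 3 of the 377 pairs with 1000 to under 5000 bases between them, and 16 of 3477 farther apart.

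A few loci on different contigs had the same structure. Among compared loci with 3 or more exons, 15 pairs agreed in the length of every intron and every inner exon, each pair on 2 different contigs. They held 8 of 432 leaf calls (1.85%), 0 of 153 meristem calls and 22 of 5788 loci not called (0.380%). In 14 of the 15 pairs the log2 differences were within 2-fold of each other, and in the 4 pairs with a call both loci were called for leaf. Whether such pairs are gene copies or alleles left apart in the assembly was not tested.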

How the data were processed

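RNA was sequenced from leaf, meristem and stem. The deposited values are raw counts per gene model, made by the authors with featureCounts 1.6.3 (paired reads, strand setting 1) against a separate set of models for each tissue, per the file headers. HISAT2 2.1.0 and StringTie 1.3.3b are named in the submitters' processing notes. The genome build has no name in the sources used here. Per the labels' protocols, 1 library was made per tissue, and a column may hold 1 labelled sample or both.

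Exons were merged and loci joined with numpy 2.4.6, scipy 1.17.1 and pandas 2.3.3 under Python 3.11.15, and figures made with matplotlib 3.10.9. CPM used the table totals and TMM factors over the kept loci (edgeR 4.0.16, R 4.3.3, for normalisation only). The stem factor of 1.08 came from the 8922 kept loci with 1 stem model, rescaled so that leaf and meristem kept theirs. No p-value was computed. Intervals are exact binomial (Clopper-Pearson, 95%) and, with 1 column per tissue, cover counting error only. PCR copies of a molecule could not be told apart, so the intervals may be too narrow even for that. A count of 0 allows up to 3 counts, or 0.0184 CPM before scaling in leaf and 0.0221 in meristem. The 2 largest folds, the 5 highest levels per kilobase, the most exons, the longest span and the densest contig in each direction, the 3 highest levels under 1.5-fold and the loci nearest to 4-fold are named. Members, rule and limits were chosen with earlier results of these data known. Of the gene numbers, 0 matched the RefSeq table at hand (assembly drHumLupu1.1). Poisson counts were simulated for the 10486 loci of this comparison. The rule called 100% of 100 loci raised 8-fold in leaf and of 100 raised 8-fold in meristem. It called 0% of 100 raised 2-fold in leaf, and 0 of 10136 unchanged loci. The most abundant loci were raised in leaf too and are not among these counts. Such counts hold no variation between plants, so they check the calculation only and give no rate of false calls.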

Additional observations from a re-analysis of the deposited data

How the results depend on the processing

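No paired analysis was possible because each tissue has 1 column without a replicate number. Tests that need replicates (edgeR's quasi-likelihood test, DESeq2, leaving out a replicate) were therefore not run. Calls for leaf and meristem stayed within 1.5 times of 570 and 189 under RLE factors, a low-count filter, counts per base of model, length limits of 5% and 20%, joining over 3 tables (509 and 147), without other-strand overlaps and with equal exon numbers. The loci compared were 7470 as reported, 5469 and 9251 under the length limits of 5% and 20%, and 6655 joined over 3 tables. They were 6914 without other-strand overlaps and 6543 with equal exon numbers. Without scaling factors the calls were 362 and 385 of 7553 loci, a leaf share of 48.5% and a median log2 difference of -0.46. With factors over all loci they were 744 and 120 of 7482, 86.1% and 0.26. A CPM minimum of 1 gave 681 and 293 of 9947 compared loci (leaf share 69.9%). One of 50 gave 378 and 97 of 3135 (79.6%). A fold of 2 gave 1547 and 985 (61.1%), and a fold of 8 gave 198 and 37 (84.3%). With no limit on model lengths, 1009 and 376 of 10706 loci were called (72.9%). Per base of model, an alternative chosen after seeing the data, the calls were 1050 and 288 (78.5%). Other factors, the filter and counts per base moved each fold by much less than 4-fold. The 27 named loci past 4-fold therefore had to keep their direction under them. Still past 4-fold were 23 of the 27 without factors and 25 with factors over all loci. Counting error is small beside a 4-fold limit at these depths, but variation between plants could not be estimated, and loci without a model in 1 tissue are left out by construction.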
